A study of Mus musculus with 2 samples.

Results

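The microRNAs described here are the 4 mature products of 2 hairpins, mir-28a and mir-151: miR-28a-5p, miR-28a-3p, miR-151-5p and miR-151-3p. They were chosen by their joint rise in Th17 cells, seen in the same 2 libraries that are described here. Their Th17 over Th0 ratios are therefore a description and carry no test. The 4 members are among 1125 mature miRNAs listed in at least 1 library, and all 4 were listed in both libraries.

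The study sequenced small RNA from 1 Th17 and 1 Th0 library of mouse helper T cells. Both cultures were started from naive CD4+CD62L+ cells of the spleen of female C57BL/6 mice, in medium with 10% foetal bovine serum. Th17 cells, the interleukin-17-producing helper lineage, received TGF-β (2 ng/ml), IL-1β (10 ng/ml), IL-23 (40 ng/ml) and IL-6 (40 ng/ml), and antibodies to IL-12 (5 µg/ml) and IL-2 (5 µg/ml), and were kept for 6 to 7 days. Antibodies to CD28 (1 µg/ml), IFN-γ (5 µg/ml) and IL-4 (5 µg/ml) were given to the Th17 culture and to the Th0 culture, the control. No other additions are listed for Th0. The Th0 culture time is not stated, so culture time and the Th17 additions cannot be told apart. The design text speaks of triplicates, but each library is 1 column of reads, and whether that column pools cultures is not stated. Intervals in brackets are 95% intervals of counting error within these libraries and say nothing of the spread between cultures.

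A miRNA gene is transcribed as part of a longer RNA, cut to a hairpin in the nucleus and then to a duplex in the cytoplasm, and 1 strand of the duplex, from the 5p or the 3p arm, is loaded into an Argonaute protein. The loaded strand finds target mRNAs mainly through its seed, bases 2 to 8. mir-28a lies within Lpp, which encodes a LIM domain protein of focal adhesions, and mir-151 within Ptk2, which encodes focal adhesion kinase. Both hairpins are known to derive from LINE-2 repeats. In mice miR-28 is reported to repress the inhibitory receptor PD-1 in T cells and to restrain germinal centre B cells, and in human liver cancer cells miR-151 is reported to promote migration together with its host's product.

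The RefSeq sequences of the mir-28a arms (GRCm38.p6, plus strand of chromosome 16) are shown with those of mir-708, a relative in an intron of Tenm4 on the plus strand of chromosome 7, because these show which reads share a seed. Capitals mark the seed, and each sequence reads 5′ to 3′. miR-28a-5p is at chr16:24827868-24827889 and miR-28a-3p at chr16:24827908-24827929. miR-708-5p is at chr7:96249450-96249472 and miR-708-3p at chr7:96249496-96249517.
miR-28a-5p: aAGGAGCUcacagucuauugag
miR-708-5p: aAGGAGCUuacaaucuagcuggg
miR-28a-3p: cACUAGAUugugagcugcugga
miR-708-3p: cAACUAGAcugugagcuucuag

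miR-28a-5p and miR-708-5p have the same seed and the same first 8 bases, and 16 of their first 22 positions are identical. Counted from 1 at the 5′ end of miR-28a-5p, the differences are C9U, G13A, U18G, U19C, G20U and A21G. The 3p arms have different seeds. Set against each other with a shift of 1 base, 17 of 21 positions of miR-28a-3p and miR-708-3p are identical. Both mir-28a arms are 22 bases long, and they share an unbroken stretch of 8 complementary bases, AGCUCACA on the 5p arm. No sequence was at hand for miR-151-5p, miR-151-3p or the relative miR-28c. Their likeness to the mir-28a arms was therefore not searched, and closer relatives than those below may be missed. Mature sequences were matched by name for 935 of the 1125 miRNAs, and the seed of miR-28a-5p was found in no other of them than miR-708-5p, while that of miR-28a-3p was in no other. miR-339-5p holds 10 bases of miR-28a-5p in a row, AGGAGCUCAC, but at its positions from 13 on, outside its seed.

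Mir28a occupies 24827855 to 24827940 on the plus strand of chromosome 16 (GRCm38, the same assembly as mm10). It falls in an intron of 82814 bases, intron 8 of the 13-exon principal Lpp transcript in GENCODE. Mir151 occupies 73254815 to 73254882 on the minus strand of chromosome 15, in an intron of 14556 bases, intron 22 of the 32-exon principal Ptk2 transcript. Both genes are transcribed in the direction of their hosts and overlap no exon of them. Among the 763 of 782 precursors with a matched position, no other lies in Lpp or Ptk2 on the strand of the host. The mRNA of the hosts was not measured in these libraries.

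The libraries held 11975371 listed reads over 1012 miRNAs for Th17 and 8358010 over 986 for Th0. Levels are given as CPM, reads per 1000000 listed reads of the library, and since 1 read is 1 mature miRNA no correction for length applies. The 6 lymphocyte and T cell markers checked (among them miR-142a-5p, which marks blood cells) were present in both libraries and summed to 136717 CPM in Th17 and 102303 CPM in Th0. They went both ways, with 4 ratios above 1 and 2 below, those of miR-142a-3p at 0.525 (0.514 to 0.537) and miR-342-3p at 0.557 (0.550 to 0.564). The 19 markers of other cell types summed to 302 CPM in Th17 and 547 CPM in Th0. Of these the myeloid miR-223-3p was at 6.76 CPM in Th17 and 3.35 CPM in Th0. Its ratio was 2.02 (1.30 to 3.22). Intervals of the ratio also lay above 1 for 1 of 2 erythroid, 1 of 5 epithelial and 3 of 4 stromal and smooth muscle markers. The stromal and smooth muscle list summed to 19.6 CPM in Th17 and 2.15 CPM in Th0. Intervals lay below 1 for both endothelial and megakaryocytic markers, miR-126a-3p and miR-126a-5p, which summed to 85.9 CPM in Th17 and 191 CPM in Th0. They also lay below 1 for 3 of 5 epithelial markers and for the neural miR-9-5p at 0.343 (0.245 to 0.475). All 5 epithelial markers summed to 182 CPM in Th17 and 335 CPM in Th0. The intervals of miR-133a-3p (muscle, ratio 3.49, 0.744 to 32.8) and miR-145a-5p (smooth muscle, ratio 0.698, 0.00889 to 54.8) spanned 1. miR-144-3p (erythroid), miR-205-5p (epithelial), miR-122-5p (liver) and miR-124-3p (neural) were at 0 in Th0 and at 1 or 2 reads in Th17, and miR-1a-3p (muscle) had no row in either. The part of these cells in the ratios below was not tested. In such bulk libraries a change in the share of a cell type and a change in RNA per cell cannot be told apart.

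All 4 miRNAs were higher in Th17 than in Th0, and the mir-151 arms stood further apart between the libraries than the mir-28a arms. Together they took 52311 reads in Th17 and 13004 in Th0, or 0.437% of the listed reads in Th17 and 0.156% in Th0. The summed level was 4368 CPM in Th17 and 1556 CPM in Th0, 2.81-fold higher in Th17 (2.75 to 2.86).

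miR-151-3p, the more abundant mir-151 arm, was at 1755 CPM in Th17 (exact Poisson interval 1731 to 1779) and 442 CPM in Th0 (428 to 456), from 21017 reads in Th17 and 3694 in Th0. Its fold was 3.97 (3.83 to 4.11), a log2 ratio of 1.99. miR-151-5p, the other arm of the same hairpin, was at 695 CPM in Th17 (680 to 709.9) and 188 CPM in Th0 (179 to 198), from 8321 reads in Th17 and 1574 in Th0. Its fold was 3.69 (3.50 to 3.90), a log2 ratio of 1.88. For both arms the Poisson intervals of the libraries lay far apart, and among the 298 miRNAs that averaged 10 CPM or more their ratios ranked 7 and 8 from the top.

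miR-28a-3p was at 660 CPM in Th17 (645 to 674) and 284 CPM in Th0 (272 to 295), from 7899 reads in Th17 and 2372 in Th0. Its fold was 2.32 (2.22 to 2.43), a log2 ratio of 1.22. miR-28a-5p, the arm with the larger number of reads, was at 1259 CPM in Th17 (1239 to 1279) and 642 CPM in Th0 (625 to 659), from 15074 reads in Th17 and 5364 in Th0. Its fold was 1.96 (1.90 to 2.02), a log2 ratio of 0.97. Again the Poisson intervals did not overlap. The 2 ratios ranked 13 and 22 of 298, and that of miR-28a-5p stood just under 2-fold with an interval that spanned 2.

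**Figure D1:**
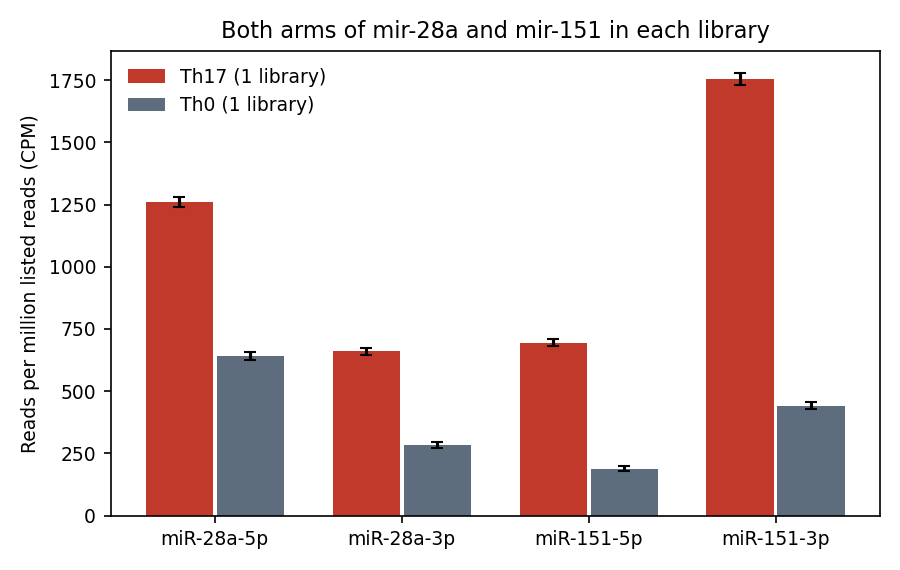
Levels of the 4 members in CPM, with Th17 bars left of Th0 bars and error bars giving the exact 95% Poisson interval of the count in 1 library. Every Th17 bar is above its Th0 bar, from 1.96-fold for miR-28a-5p to 3.97-fold for miR-151-3p.

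As background, 20 of the 298 miRNAs that averaged 10 CPM or more, or 6.71%, were at least 2-fold higher in Th17 with an interval above 1, and 3 of the 4 members are among those 20. Outside the members the count was 17 of 294. An interval above 1, at any size of fold, was found for 121 of the 298, or 40.6%, and for all 4 members. Since the members were selected on this contrast, nothing is read from either count. The median log2 ratio was 1.55 for the 4 members and -0.080 for all 298, whose quartiles were -0.60 and 0.38. Among the 132 miRNAs of like abundance, with a mean between 100 and 5000 CPM, 11 were at least 2-fold higher, of which 3 were members, and the median log2 ratio was -0.11.

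**Figure D2:**
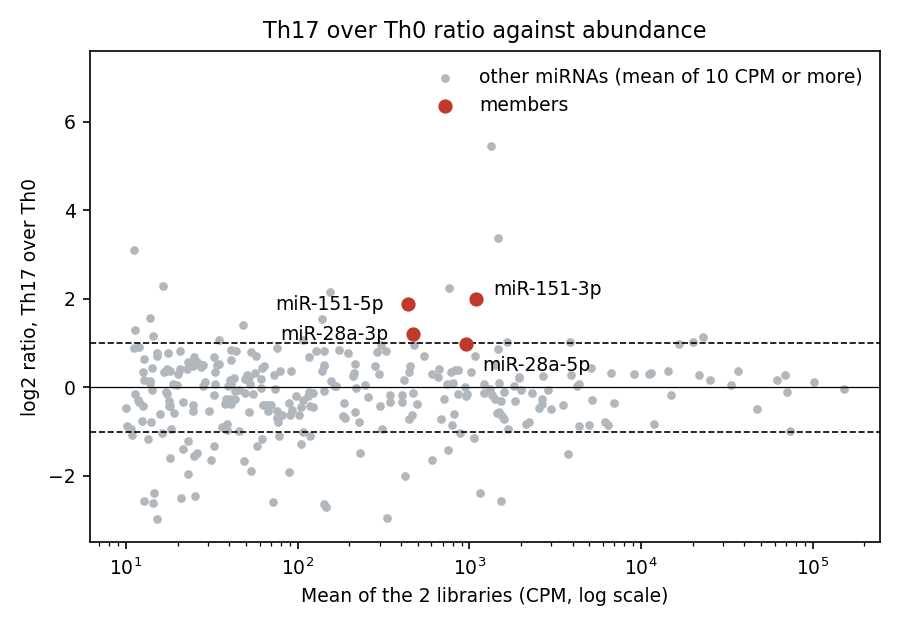
Log2 ratio of Th17 over Th0 against the mean CPM of both libraries (log axis) for the 298 miRNAs that averaged 10 CPM or more, with the members in red and dashed lines at 2-fold. The members lie between 0.97 and 1.99 on the log2 scale, above the median of all points at -0.080.

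The order of the members by level differed between the libraries. In Th17 it was miR-151-3p, miR-28a-5p, miR-151-5p and miR-28a-3p, and no 2 of the Poisson intervals overlapped, although those of miR-151-5p (from 680 CPM) and miR-28a-3p (up to 674 CPM) nearly met. In Th0 it was miR-28a-5p, miR-151-3p, miR-28a-3p and miR-151-5p, again with no overlap. miR-151-3p thus stood at 1.39 times miR-28a-5p in Th17 and at 0.689 times in Th0.

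By rank among all listed miRNAs, miR-151-3p was at place 50 in Th17 and 97 in Th0, and miR-151-5p at 83 in Th17 and 129 in Th0. miR-28a-5p was at place 62 in Th17 and 87 in Th0, and miR-28a-3p at 87 in Th17 and 110 in Th0. Most neighbours in these orders could not be separated by counting error. miR-28a-5p in Th17 lay between miR-5099 at 1271 CPM and miR-421-3p at 1259 CPM, and its interval overlapped both. miR-28a-3p in Th17 lay between miR-17-5p at 662 CPM and miR-24-2-5p at 649 CPM, and miR-151-5p between let-7b-5p at 713 CPM and miR-351-5p at 676 CPM, all with overlapping intervals. miR-151-3p in Th17 was the exception, separated from miR-98-5p above it at 1855 CPM and from miR-298-5p below it at 1649 CPM. In Th0, 7 of the 8 neighbours overlapped, and let-7b-5p, at 606 CPM below miR-28a-5p, did not.

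A comparison within each library needs no scaling between them. Among the reads of the 4 members, miR-151-3p made up 40.2% in Th17 (exact binomial interval 39.8 to 40.6%) and 28.4% in Th0 (27.6 to 29.2%), and miR-151-5p 15.9% in Th17 (15.6 to 16.2%) and 12.1% in Th0 (11.5 to 12.7%). miR-28a-5p made up 28.8% in Th17 (28.4 to 29.2%) and 41.2% in Th0 (40.4 to 42.1%), and miR-28a-3p 15.1% in Th17 (14.8 to 15.4%) and 18.2% in Th0 (17.6 to 18.9%). The larger part of the reads thus came from mir-151 in Th17 and from mir-28a in Th0, with 29338 mir-151 and 22973 mir-28a reads in Th17 and 5268 mir-151 and 7736 mir-28a reads in Th0. Summed over arms, mir-151 was 3.89-fold higher in Th17 (3.77 to 4.003) and mir-28a 2.07-fold higher (2.02 to 2.13).

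**Figure D3:**
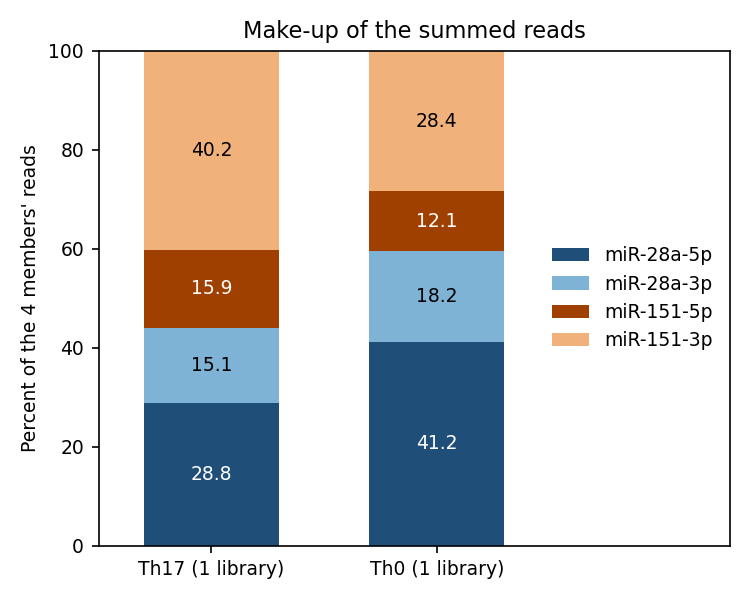
Percent of the summed reads of the 4 members that each member made up, in the Th17 library (left) and the Th0 library (right). The mir-151 arms (brown and orange) take a larger part in Th17, with miR-151-3p at 40.2% in Th17 and 28.4% in Th0, and miR-28a-5p (dark blue) a smaller one, at 28.8% in Th17 and 41.2% in Th0.

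Set against each other in pairs, the folds of the mir-151 arms exceeded those of the mir-28a arms. The fold of miR-151-3p was 2.02 times that of miR-28a-5p (Woolf interval 1.93 to 2.12) and 1.71 times that of miR-28a-3p (1.61 to 1.81). The fold of miR-151-5p was 1.88 times that of miR-28a-5p (1.77 to 2.002) and 1.59 times that of miR-28a-3p (1.48 to 1.70). The 2 arms of 1 hairpin were closer to each other: the fold of miR-28a-3p was 1.19 times that of miR-28a-5p (1.12 to 1.25), and the fold of miR-151-3p was 1.08 times that of miR-151-5p (1.01 to 1.15). These are 6 pairs in all, and each interval lies above 1 by counting error alone, with no replicate cultures behind it.

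Both arms of each hairpin were therefore higher, with a small change in how reads were divided between them. The 5p arm took 65.6% of mir-28a reads in Th17 (exact binomial interval 65.0 to 66.2%) and 69.3% in Th0 (68.3 to 70.4%), a difference of -3.72 percentage points. It took 28.4% of mir-151 reads in Th17 (27.8 to 28.9%) and 29.9% in Th0 (28.6 to 31.1%), a difference of -1.52 points. These intervals overlapped, but the ratio of the arms' folds above, from the same counts, was 1.08 with an interval above 1 (1.01 to 1.15). In both libraries more reads thus came from the 5p arm for mir-28a and from the 3p arm for mir-151, and neither arm was rare among the reads. A 5p share between 20% and 80% in both libraries was found in 23 of the 88 hairpins whose 2 arms each reached a mean of 10 CPM, with mir-28a and mir-151 among them.

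Across those 88 hairpins the gap between the log2 ratios of the 2 arms, taken without sign, had a median of 0.31 and quartiles of 0.11 and 0.65. It was 0.11 for mir-151, the 22nd smallest of 88, and 0.24 for mir-28a, the 33rd smallest. As background, both arms were at least 2-fold higher in 3 hairpins, or 3.41% of the 88. These were mir-147, mir-151 and mir-155. mir-147, induced by inflammatory signals in macrophages, had folds of 10.6 for the 5p arm (6.42 to 18.9) and 10.4 for the 3p arm (9.94 to 10.8). The 5p arm of mir-147 averaged 11.1 CPM over both libraries, just above the minimum of 10 CPM. mir-155, induced by activation of lymphocytes, had folds of 2.21 for the 5p arm (2.20 to 2.23) and 4.51 for the 3p arm (4.09 to 4.98), with a gap of 1.02 on the log2 scale. Its 5p arm held 99.2% of its reads in Th17 and 99.6% in Th0, and that of mir-147 held 0.752% in Th17 and 0.734% in Th0, against 28.4% in Th17 and 29.9% in Th0 for mir-151. mir-28a, with 1 arm past 2-fold and the other at 1.96-fold, is among 8 hairpins with a single arm past it. Intervals above 1 for both arms, at any size, were found in 27 of 88 hairpins, or 30.7%, mir-28a and mir-151 included. Ordered by the lower of the 2 arm ratios, mir-151 was at place 2 and mir-28a at place 4 of 88. Both hairpins were chosen for their rise in these libraries, so nothing is read from these hairpin counts and places.

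**Figure D4:**
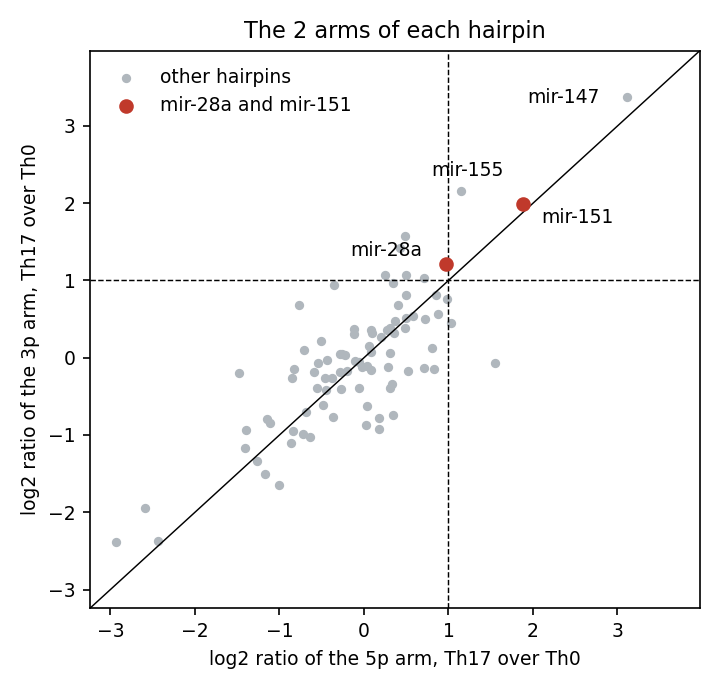
Log2 ratio of Th17 over Th0 for the 5p arm (x axis) and the 3p arm (y axis) of the 88 hairpins with both arms at a mean of at least 10 CPM. The diagonal marks equal ratios and dashed lines mark 2-fold. mir-151 lies at 1.88 and 1.99 in the upper right corner with mir-155 and mir-147, and mir-28a at 0.97 and 1.22, just left of the dashed line.

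Of the relatives of mir-28a, the mir-708 arms and miR-28c were scarce in both libraries. miR-708-5p, which carries the seed of miR-28a-5p, had 0 reads in Th17 and 8 in Th0. The upper limit that 0 reads allow in Th17 is 3 reads, or 0.251 CPM, against 0.957 CPM in Th0, and the exact interval of its Th17 over Th0 ratio ran from 0 to 0.409. miR-708-3p had 2 reads in Th17 and 2 in Th0. miR-28c, from an intron of Samd12 on chromosome 15, had 45 reads in Th17 and 23 in Th0, and its ratio of 1.37 had an interval that spanned 1 (0.809 to 2.36). miR-28b had no row in either library. miR-339-5p, with 10 bases in common with miR-28a-5p, was at 42.4 CPM in Th17 and 62.2 CPM in Th0 (ratio 0.682, interval 0.602 to 0.772). Among the miRNAs with a matched sequence, the reads with this seed thus came almost wholly from miR-28a-5p itself, which had 15074 reads in Th17 and 5364 in Th0.

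Both hairpins are intronic. Of the 124 miRNAs at 10 CPM or more whose precursors all lie in introns of protein-coding genes on the same strand, 8 were at least 2-fold higher in Th17, or 6.45%, and 11 at least 2-fold lower, or 8.87%, with a median log2 ratio of -0.091. Of the other 174, 12 were at least 2-fold higher, or 6.90%, and 28 at least 2-fold lower, or 16.1%, with a median of -0.062. Of the 8 intronic ones that were higher, 3 are members chosen for this rise, which leaves 5 of 120, or 4.17%. These 5 were miR-10b-5p (host models Hoxd3 and Hoxd4), miR-1843b-3p (Cop1), miR-6538 (Rnf144a), miR-1948-3p (Ttc39c) and miR-99b-5p (Spaca6), which are named after their values were seen. Their folds were 44.0, 3.13, 2.29, 2.11 and 2.05.

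The 5 miRNAs at a mean of at least 100 CPM whose log2 ratios were nearest to the members' median of 1.55 were miR-210-5p (1.55), miR-155-5p (1.15), miR-1948-3p (1.07), miR-99b-5p (1.03) and miR-29a-3p (1.03). The likeness is that of 1 ratio over 2 libraries. miR-210-5p, from a hairpin induced by hypoxia, was at 207 CPM in Th17 and 70.5 CPM in Th0. It is the scarcer arm of mir-210. The 3p arm averaged 1999 CPM, with a Th17 over Th0 ratio of 0.957 (0.938 to 0.976). miR-155-5p was at 31749 CPM in Th17 and 14346 CPM in Th0, so each member lay far below it in level, and its fold of 2.21 lay between those of miR-28a-5p and miR-28a-3p.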

How the data were processed

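Small RNA was sequenced from 1 Th17 and 1 Th0 library. The authors deposited, for each library, whole-number read counts per mature miRNA and a TPM value, which is the same count over a library total larger than the listed sum. The build is mm10, per the submitters' processing notes. The aligner, the miRNA release and the rule for reads with several matches are not stated in the sources used. Counts of near-identical miRNAs are therefore uncertain.

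Counts were divided by the sum of listed reads, and a miRNA with no row was taken as 0. Log2 ratios had 0.5 CPM added; folds did not. Fold intervals (95%) are exact and conditional on both counts, shares are Clopper-Pearson, levels exact Poisson, and ratios of folds Woolf intervals. PCR reads are not independent molecules, so all cover counting error only, as does the limit of 3 reads for a count of 0. With 1 library per group there was no test and no p-value. TMM factors (edgeR 4.0.16, R 4.3.3) were 0.997 for Th17 and 1.00 for Th0 and were used as an alternative, with other scalings, pseudocounts, minimum levels and folds. Python 3.11.15 and scipy 1.17.1 were used.

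The members and lists were chosen with earlier results of these data known. Named miRNAs are the members, relatives by name, seed or a shared run of 10 bases, the 5 nearest ratios, hairpins with both arms past 2-fold, miRNAs of the same hosts, markers and neighbours in rank. Seeds and shared runs were searched for the mir-28a arms only, since the mir-151 arms had no sequence. Positions are from GENCODE M21 (763 of 782 precursors matched) and RefSeq.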

Additional observations from a re-analysis of the deposited data

How the results depend on the processing

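No paired analysis was possible because each group has 1 library. All 4 members and their sum stayed above 0 in the 8 alternatives run for each. Each scaling shifts all miRNAs nearly alike and by little, and a pseudocount cannot reverse a ratio. No sign could therefore have changed here. The log2 ratio ran from 1.93 to 2.07 for miR-151-3p, 1.83 to 1.96 for miR-151-5p, 1.16 to 1.29 for miR-28a-3p, 0.91 to 1.05 for miR-28a-5p and 1.43 to 1.57 for the sum. With median-of-ratios size factors, and when centred on the median of all miRNAs, miR-28a-5p passed 2-fold at 1.05, miR-28a-3p was at 1.29, miR-151-3p at 2.07 and the sum at 1.57. Without the 10 most abundant miRNAs in the total these were 0.91 for miR-28a-5p, 1.93 for miR-151-3p and 1.43 for the sum. No scaling moved the median of all miRNAs by more than 0.079.

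Background counts depended on the rule. Minimum levels and the 1.5-fold limit do not enter a member's ratio, so counts and ratios cannot be compared for steadiness. The 20 miRNAs at least 2-fold higher in Th17 became 69 with no minimum level, 13 with a minimum of 50 CPM, 50 at 1.5-fold and 33 without the 10 most abundant, where a smaller total lifts more miRNAs over the minimum. The 39 that were lower became 100, 21, 76 and 61 in the same order. The 3 hairpins with both arms higher became 6 with no minimum, 7 at 1.5-fold, 2 with a minimum of 50 CPM, and 4 with median-of-ratios factors, median centring and without the 10 most abundant. Adding near-identical relatives to the arm shares was not run, since the name miR-28c gives no arm.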
